A study of Mus musculus with 12 samples.

Results

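Integrins and laminins are the receptor and ligand families through which cells hold the basement membrane. The 37 mouse genes described here were matched by symbol out of 55487 genes counted, but the families were chosen with earlier results of these data known. They are all protein-coding genes whose symbols name an integrin alpha chain (18 genes), an integrin beta chain (8 genes) or a laminin alpha, beta or gamma chain (5, 3 and 3 genes). RNA was sequenced from SCC7 cells, a wild-type mouse line labelled as a squamous carcinoma, after 24 h in medium conditioned by bone-marrow-derived macrophages. The macrophages had first spent 24 h in control medium (M0 CM), in interferon gamma at 20 ng/ml (M1 CM), in interleukin-4 at 20 ng/ml (M2 CM), or in medium of which 75% had been conditioned by SCC7 cells (TAM CM, whose libraries are labelled SCC7-BMDM). Each medium was applied in 3 libraries, 12 in all. All 4 groups received macrophage medium, so M0 CM is the common reference and no group of SCC7 cells without macrophage medium was analysed here. Removal of the cytokines or of the SCC7 medium before collection is not described in the sources used here. Nor are separate cultures named for the 3 libraries of one medium, so the p-values speak to the spread of these libraries alone, which may be technical. For M2 CM library 3 the label gives a melanoma as the cell type. It was kept in M2 CM, and comparisons were also run without it.

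An integrin is a pair of 1 alpha and 1 beta chain that spans the membrane, binds matrix or another cell outside, and links to actin or keratin filaments inside. Which chains pair decides the ligand: alpha 5 with beta 1 binds fibronectin, alpha v with beta 1, 3, 5, 6 or 8 binds RGD-bearing ligands such as vitronectin, alpha 3 or alpha 6 with beta 1 and alpha 6 with beta 4 bind laminin, and beta 2 and beta 7 belong mostly to leukocytes. A laminin is a cross-shaped trimer of 1 alpha, 1 beta and 1 gamma chain, whose alpha chain carries the main integrin-binding end. In squamous epithelium the chains of Lama3 and Lamb3 belong to the trimer that hemidesmosomes hold.

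Library totals ran from 18996937 to 22596630 counts, and 1 CPM (the count scaled to its library size, with TMM factors) stood for 18.3 to 23.5 counts. Of 11 squamous or epithelial markers, Krt8 and Krt18 were abundant (mean 63.6 to 453 and 31.3 to 263 CPM over the 4 groups). The squamous keratin genes Krt5 and Krt14 lay under 0.08 CPM in every group mean, Epcam had no count, and Trp63 reached 1.79 CPM at most. Of 8 fibroblast markers, 6 reached 1 CPM in every group mean, from Dcn at 2.82 to 16.9 CPM to Col1a2 at 554 to 1475 CPM, and 2 (Lum and Thy1) had no count. Summed, the 8 fibroblast markers ranged from 2505 to 2651 CPM, 1444 to 1542, 1471 to 1496 and 1148 to 1203 in the M0, M1, M2 and TAM CM libraries, and the 11 squamous or epithelial markers from 361 to 391, 167 to 171, 679 to 758 and 91.1 to 100.6. Their part in the results was not tested. Since the defining squamous markers were few, the cells are called SCC7 cells here by their label. The 13 macrophage and leukocyte markers summed to 25.4 to 26.6 CPM in the M0 CM libraries, 37.3 to 43.1 for M1 CM, 25.4 to 28.3 for M2 CM and 42.2 to 51.8 for TAM CM, most of it Cd14 (group means 15.9 to 40.9 CPM), with 3, 5, 4 and 3 of the 13 genes reaching 1 CPM in the group mean.

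Of the 37 genes, 26 had enough counts to be tested (10 integrin alpha, 8 integrin beta and 8 laminin genes). The 11 others were Itga4, Itga8, Itga9, Itga11, Itgad, Itgal, Itgam, Itgax, Lama1, Lama2 and Lama4, and none of them exceeded 0.723 CPM in any library. Itga8 had no count in any library. These are mostly chains of leukocyte, muscle and mesenchymal integrins and of non-epithelial laminins.

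Which chains dominated was compared per length, as CPM per kb of exon, with all annotated exons of a gene merged. In M0 CM, Itga5 made up 48.4% ± 0.34 (SD, n = 3) of integrin alpha RNA per length, Itga3 24.3% ± 0.54 and Itgav 22.0% ± 0.28. The order depends on this division: without it the shares were 36.1%, 20.9% and 35.7%. In M2 CM, Itgav then held 41.2% and Itga5 38.4%. Itgb1, the beta chain with most partners, made up 72.1% ± 0.72 of integrin beta RNA per length and Itgb5 19.8% ± 0.43. The most abundant chains by RNA were thus those of fibronectin, vitronectin and laminin receptors. Among laminins, Lamb1 held 78.9% ± 1.4 of beta RNA per length. Laminin alpha RNA was scarce in all 4 media: its sum in M0 CM was 1.26 ± 0.029 CPM per kb, against 57.9 ± 0.49 for laminin beta and 61.6 ± 2.1 for laminin gamma.

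**Figure D1:**
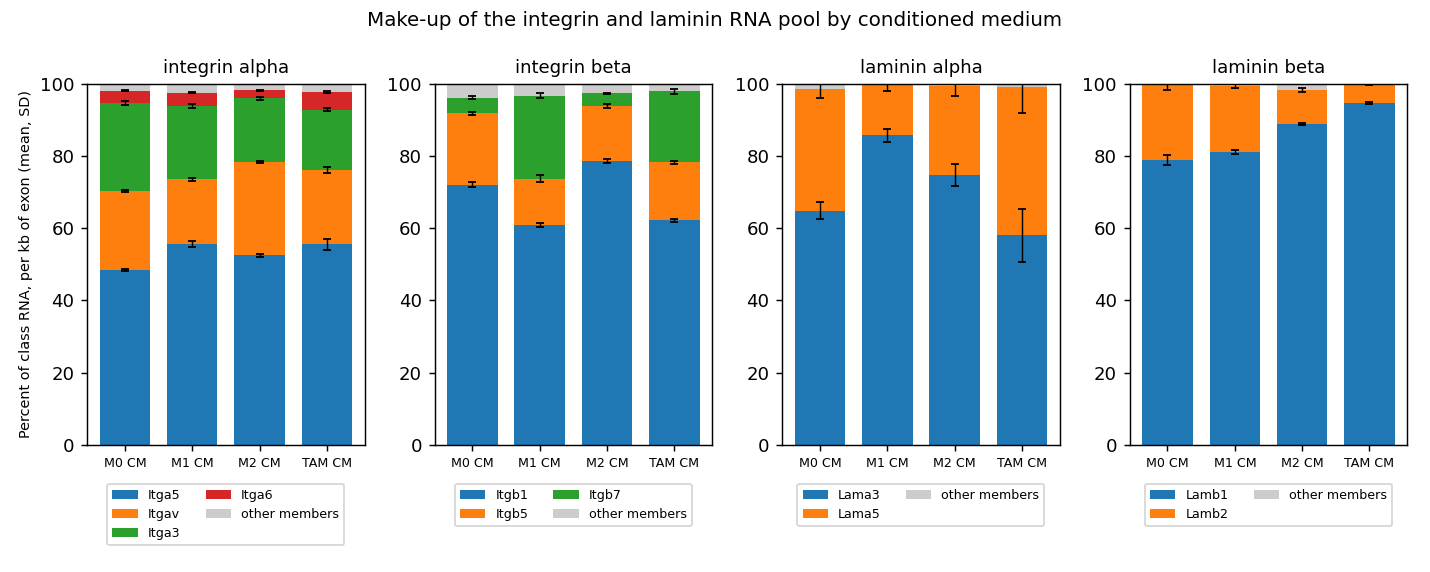
Share of the more abundant genes in the RNA of their class in the 4 media, in percent of the summed CPM per kb of exon (bars, mean of 3 libraries, and lines, SD). Genes with small shares are pooled as other members. The classes drawn are integrin alpha, integrin beta, laminin alpha and laminin beta, and laminin gamma is not drawn. The Itgb7 segment is 4.29% of integrin beta RNA with M0 CM, 23.0% with M1 CM, 3.47% with M2 CM and 19.6% with TAM CM, and the Lamb2 segment of laminin beta RNA narrows from 20.7% in M0 CM to 5.13% in TAM CM.

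Every one of the 26 tested genes passed the test (edgeR's quasi-likelihood test, adjusted p under 0.05 over all 14509 genes tested) in at least 1 of the 6 comparisons, and 4 passed in all 6 (Itga6, Itgav, Itgb8 and Lama5). Of all tested genes, 88.3% passed in at least 1 and 11.9% in all 6. The comparisons share groups and are not independent. In M1 CM against M0 CM, 6 of the 26 were higher and 14 lower (76.9%), beside 27.7% of all tested genes higher, 25.6% lower and 53.4% in either direction. In M2 CM against M0 CM, 9 were higher and 10 lower (73.1%), beside 21.0%, 18.5% and 39.4% of all tested genes. In TAM CM against M0 CM, 11 were higher and 10 lower (80.8%), beside 35.1%, 34.9% and 70.0%. The share called was above that of all genes in each of these comparisons, and closest to it in TAM CM (80.8% beside 70.0%). Whether these shares differ by more than chance was not tested, and the 26 were not matched to other genes by abundance. Of the 26, 15 reached 10 CPM in a group mean. The median log2 fold change of the 26 was -0.25, -0.00 and 0.08, where that of all tested genes was 0.01, -0.00 and 0.00. Without TMM scaling the split of all called genes moved to 3219 higher and 4626 lower in M1 CM, 2201 and 3653 in M2 CM, and 4300 and 5891 in TAM CM, and that of the 26 to 6 and 16, 9 and 10, and 9 and 10.

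Between the stimulated media, 13 of the 26 were higher and 5 lower in M2 CM against M1 CM, where 27.8% of all tested genes were higher, 28.4% lower and 56.2% changed. In TAM CM against M1 CM, 11 were higher and 9 lower, beside 32.8%, 34.4% and 67.2%. In TAM CM against M2 CM, 9 were higher and 12 lower, beside 34.3%, 34.1% and 68.4%, and 13 of the 26 were called with a change of at least 2-fold, as were 17.4% of all tested genes. Against M0 CM, 5 of the 26 fell in all 3 other media (Itga1, Itga3, Itgb4, Itgb8 and Lamb2), 2 rose in all 3 (Itga2 and Itga7), and 7 rose in some and fell in others, beside 7.05%, 6.71% and 17.6% of all tested genes. Without M2 CM library 3 the counts were 9 higher and 9 lower against M0 CM, 11 and 5 against M1 CM, and, for TAM CM against M2 CM, 9 and 13. Of the 14794 genes tested in that fit, 2711 and 2413, 3762 and 3839, and 4832 and 4738 were higher and lower, in the same order.

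**Figure D2:**
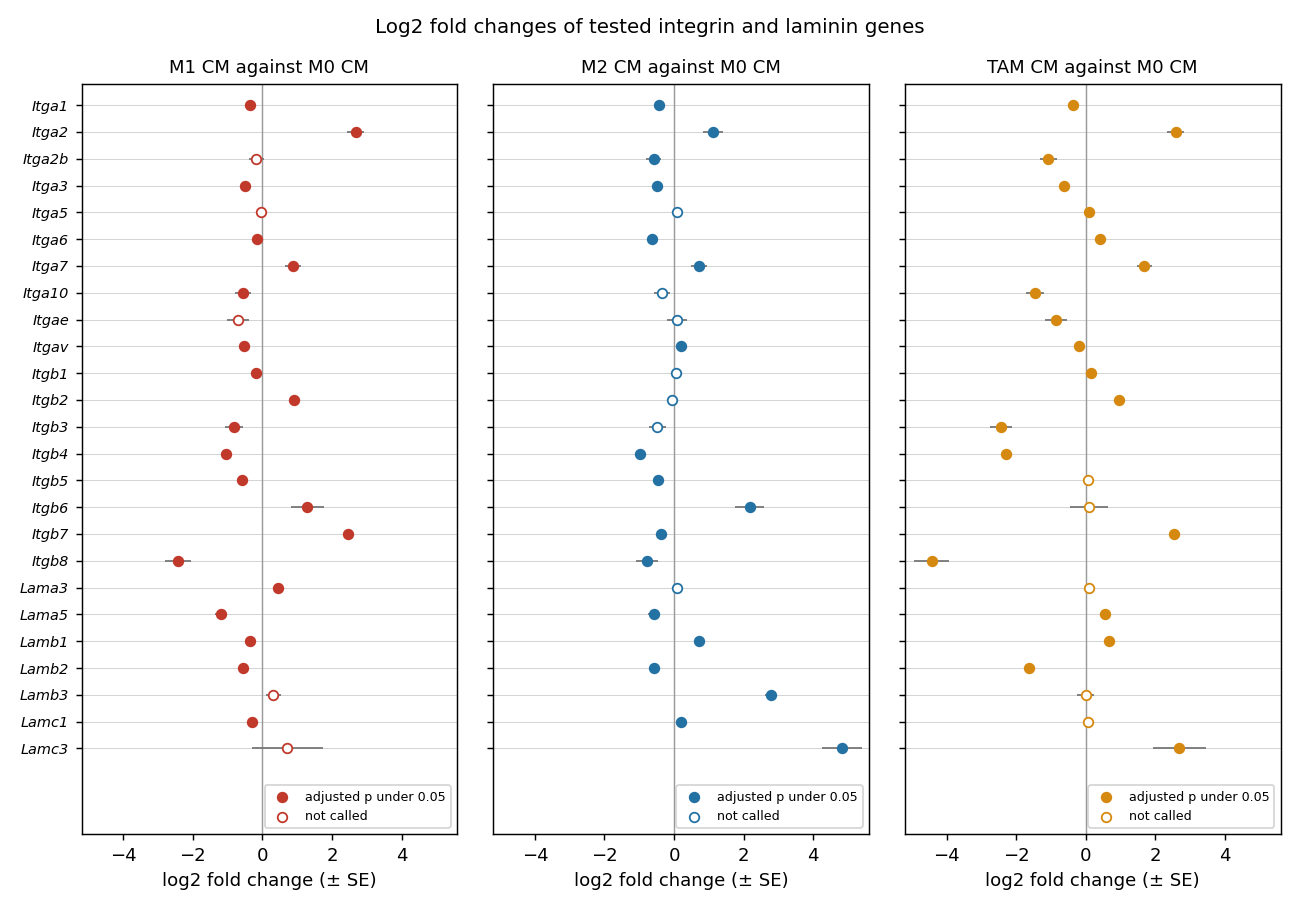
Log2 fold change of 25 of the 26 tested genes against M0 CM in each medium, with its standard error as a horizontal bar (filled points, adjusted p under 0.05; open points, not called). Itgb7 lies at 2.47 for M1 CM, -0.38 for M2 CM and 2.55 for TAM CM, Itgb4 lies left of 0 in all 3 panels, and the point of Lamc3 rests on a reference group of 3 counts.

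Of all members, the beta chain gene Itgb7 (chr15:102215995-102231944, minus strand, GRCm38) had the lowest adjusted p in M1 CM and in TAM CM. Its chain pairs with alpha 4 or alpha E in leukocytes that home to gut. Itgb7 measured 30.1, 26.4 and 28.8 CPM in the M0 CM libraries, 149, 162 and 164 in M1 CM, 21.3, 21.9 and 22.4 in M2 CM, and 175, 159 and 166 in TAM CM. All M1 CM and TAM CM libraries were far above the others, with no overlap, and the M2 CM libraries lay below M0 CM. The log2 fold change against M0 CM was 2.47 (SE 0.05, adjusted p = 1.93e-39) in M1 CM, 2.55 (SE 0.05, adjusted p = 4.69e-40) in TAM CM and -0.38 (SE 0.06, adjusted p = 1.68e-06) in M2 CM. M1 CM and TAM CM did not differ by the test (0.07, SE 0.04, adjusted p = 0.107), although without the second TAM CM library the difference was called (0.11, adjusted p = 0.034).

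The partner genes of Itgb7 did not follow it. Itga4 had 10, 3, 4 and 5 counts in the M0, M1, M2 and TAM CM groups, summed over 3 libraries each. Itgae averaged 1.46, 0.896, 1.57 and 0.814 CPM in the same order. It was lower in TAM CM than in M0 CM (-0.86, SE 0.32, adjusted p = 0.0162), a call lost without the second TAM CM library (-0.62, adjusted p = 0.119), and Haspin overlaps it on the opposite strand at 21.1 to 31.1 CPM in the group means. Itgb2, the beta chain of the other leukocyte integrins, measured 8.55, 7.56 and 8.34 CPM with M0 CM, 16.9, 13.4 and 16.0 with M1 CM, 6.50, 8.28 and 8.79 with M2 CM, and 16.5, 15.7 and 15.8 with TAM CM. Thus Itgb2 was high in the same media as Itgb7, by 0.92 (SE 0.11, adjusted p = 2.72e-10) in M1 CM and 0.97 (SE 0.11, adjusted p = 2.68e-11) in TAM CM on the log2 scale, and not in M2 CM (-0.06, SE 0.12, adjusted p = 0.741).

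Each alpha chain that pairs with beta 2 stayed under the filter. Itgal had 0 counts with M0 CM, 5 with M1 CM, 1 with M2 CM and 27 with TAM CM. Set against a floor of 3 counts over the M0 CM group, the TAM CM counts per scaled library were 9.64-fold higher. That figure leaves out the counting error of the 27 counts, so it is no lower limit, and Itgal was not tested. Itgad had 0, 3, 0 and 29 counts in the same order, but Cox6a2, which overlaps it on the opposite strand, averaged 0, 1.90, 0.0635 and 24.2 CPM, and without a stated strand the reads of such a pair cannot be told apart. Itgam had 1 count in all and Itgax 14. The macrophage marker sum, given above, was also higher in M1 CM and TAM CM. Without Cd14 the 12 other markers summed to 8.25 to 8.95 CPM in the M0 CM libraries, 13.8 to 14.5 for M1 CM, 10.5 to 11.2 for M2 CM and 5.56 to 7.74 for TAM CM, so in TAM CM their sum lay below that of M0 CM. Among these 12, Tyrobp, which macrophages express strongly, had no count in any library, whereas others were detected. Cd68 averaged 3.89, 6.99, 5.03 and 2.89 CPM in the M0, M1, M2 and TAM CM groups. In the same order Mrc1 averaged 0.681, 2.60, 1.90 and 0.725 CPM, and Lyz2 0.831, 0.422, 0.416 and 1.31. Whether any of the Itgb2 or Itgb7 RNA came from carried-over macrophages was not tested, and in bulk RNA fewer cells of a type and less RNA per cell cannot be told apart.

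**Figure D3:**
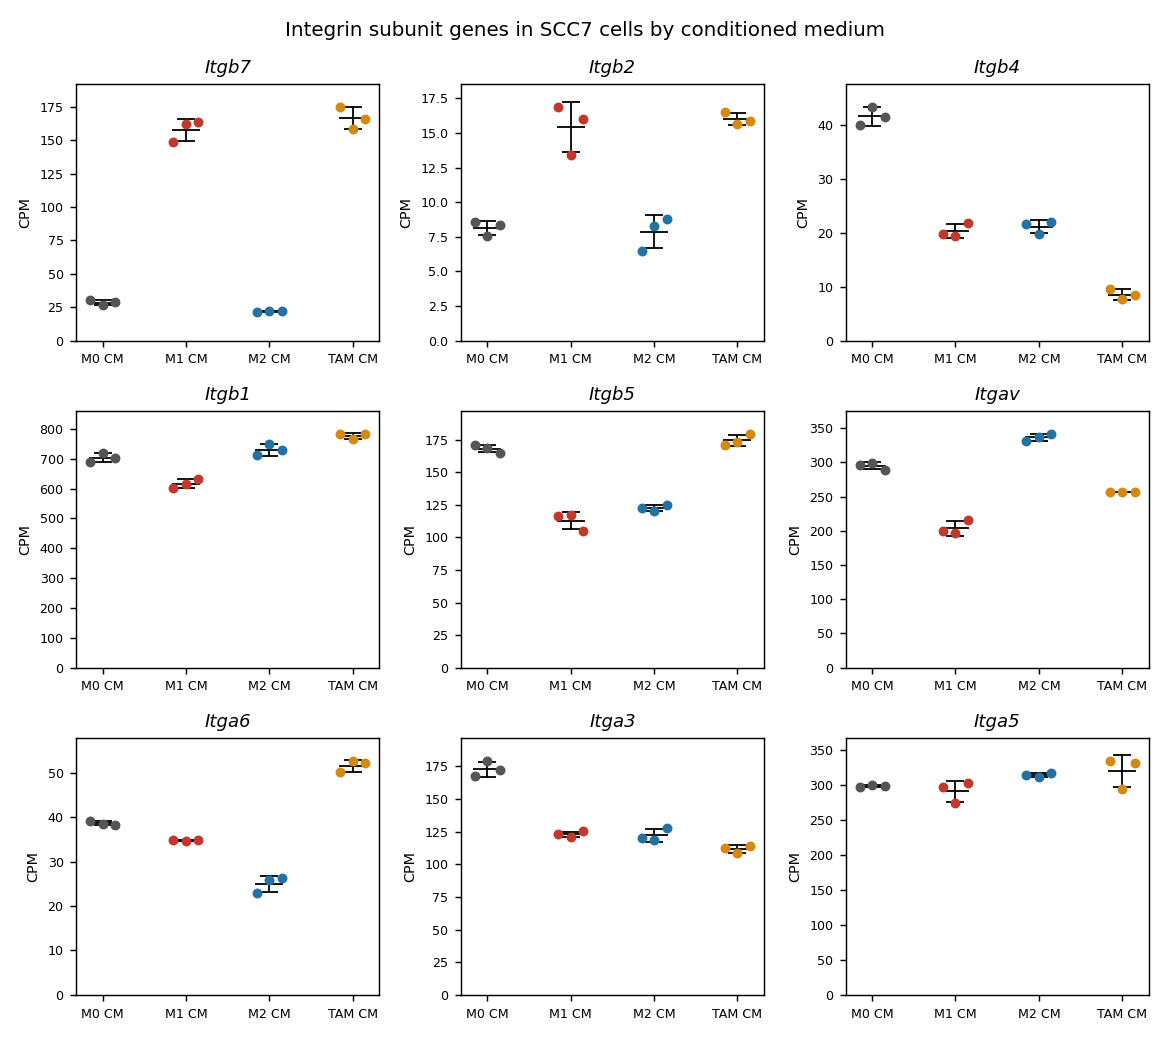
CPM of integrin genes in each of the 12 libraries by conditioned medium (points, libraries; lines, mean and SD of 3), each panel with its own linear axis from 0. The 6 M1 CM and TAM CM libraries of Itgb7 sit between 149 and 175 CPM and the 6 others between 21.3 and 30.1 CPM, and Itgb4 falls from 40.0 to 43.4 CPM in M0 CM to 7.64 to 9.55 in TAM CM.

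Receptors for laminin moved apart from one another. Itgb4 (chr11:115974709-116008412, plus strand), the beta chain of the hemidesmosome, measured 40.0, 43.4 and 41.5 CPM with M0 CM, 19.7, 19.4 and 21.9 with M1 CM, 21.6, 19.7 and 22.1 with M2 CM, and 9.55, 7.64 and 8.40 with TAM CM. Every M0 CM library was above every other library, and every TAM CM library below. The log2 change against M0 CM was -1.03 (SE 0.07, adjusted p = 1.06e-17) for M1 CM, -0.98 (SE 0.07, adjusted p = 2.77e-16) for M2 CM and -2.29 (SE 0.08, adjusted p = 1.80e-29) for TAM CM, and TAM CM was also under M1 CM (-1.26, SE 0.09, adjusted p = 1.30e-17).

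Its only partner, Itga6, was also lower in M1 CM and M2 CM, but higher in TAM CM. Itga6 measured 39.2, 38.5 and 38.3 CPM with M0 CM, 34.9, 34.6 and 34.9 with M1 CM, 22.9, 25.8 and 26.3 with M2 CM, and 50.2, 52.6 and 52.1 with TAM CM. The 4 groups did not overlap, with TAM CM highest and M2 CM lowest. Against M0 CM the log2 change was 0.42 (SE 0.06, adjusted p = 3.55e-09) in TAM CM, -0.63 (SE 0.06, adjusted p = 1.82e-12) in M2 CM and -0.15 (SE 0.06, adjusted p = 0.0216) in M1 CM. The last call was lost without the first M0 CM library (adjusted p = 0.0668) or the second M1 CM library (adjusted p = 0.0515).

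Itga3, whose chain binds laminin with beta 1, measured 167, 179 and 173 CPM with M0 CM, 123, 121 and 125 with M1 CM, 121, 118 and 128 with M2 CM, and 112, 109 and 114 with TAM CM. It fell in all 3 media without overlap with M0 CM, by 0.49 (SE 0.04, adjusted p = 2.42e-16), 0.50 (SE 0.04, adjusted p = 4.02e-16) and 0.63 (SE 0.04, adjusted p = 1.06e-20) on the log2 scale. Itga7, a laminin receptor chain of muscle, averaged 1.67, 3.07, 2.74 and 5.34 CPM in the M0, M1, M2 and TAM CM groups. It was called higher in all 3 media, the call in M2 CM being lost without the first M0 CM library (0.54, adjusted p = 0.102) or the first M2 CM library (0.60, adjusted p = 0.0727). Mettl7b, on the opposite strand, overlaps Itga7 and averaged 0.641, 1.21, 1.83 and 7.47 CPM, so its reads may be mixed with those of Itga7.

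Collagen receptor chains split in direction. Itga2 averaged 0.738 CPM with M0 CM (47 counts over the group), 4.75 with M1 CM (295 counts), 1.60 with M2 CM (100 counts), and 4.45 with TAM CM (266 counts). No library of the other media was as low as the highest M0 CM library, 0.916 CPM. The log2 change was 2.68 (SE 0.24, adjusted p = 1.66e-13) for M1 CM, 1.12 (SE 0.29, adjusted p = 0.00134) for M2 CM and 2.59 (SE 0.25, adjusted p = 3.01e-13) for TAM CM. Itga1, the other main collagen receptor chain, fell: it measured 13.0, 12.3 and 11.4 CPM with M0 CM, 10.3, 8.75 and 9.72 with M1 CM, 9.57, 9.18 and 8.70 with M2 CM, and 8.79, 9.22 and 10.5 with TAM CM. Its log2 change was -0.35, -0.42 and -0.36 (SE 0.10, 0.11 and 0.11; adjusted p = 0.00359, 0.001 and 0.00201), and Pelo, which overlaps it on the same strand, reached 2.41 CPM. Itga10 averaged 2.59, 1.75, 2.04 and 0.944 CPM and was lower in TAM CM (-1.45, SE 0.26, adjusted p = 3.00e-06). Its call in M1 CM (-0.56, adjusted p = 0.0394) was lost in 5 of the 6 fits without an M0 CM or M1 CM library, with adjusted p from 0.0512 to 0.171 in those.

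The chains of fibronectin and vitronectin receptors were abundant. Itga5 measured 297, 300 and 298 CPM with M0 CM, 297, 274 and 302 with M1 CM, 314, 312 and 317 with M2 CM, and 334, 294 and 332 with TAM CM. The TAM CM libraries straddled those of M0 CM, and the call there (0.10, SE 0.04, adjusted p = 0.0206) was lost without the first or last M0 CM library (adjusted p = 0.0601 and 0.0584) or the first or last TAM CM library (adjusted p = 0.142 and 0.127), and without scaling factors (0.00, adjusted p = 0.964). Itgav measured 296, 300 and 290 CPM with M0 CM, 199, 196 and 216 with M1 CM, 332, 337 and 341 with M2 CM, and 256, 257 and 257 with TAM CM. These 4 groups did not overlap, and M2 CM was highest. The log2 change against M0 CM was -0.53 (SE 0.03, adjusted p = 4.43e-19) for M1 CM, 0.19 (SE 0.03, adjusted p = 5.35e-06) for M2 CM and -0.20 (SE 0.03, adjusted p = 5.97e-07) for TAM CM.

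Itgb1 measured 690, 719 and 702 CPM with M0 CM, 602, 616 and 633 with M1 CM, 711, 749 and 730 with M2 CM, and 781, 766 and 783 with TAM CM. M1 CM was below every other group (-0.19 against M0 CM, SE 0.03, adjusted p = 3.84e-07). The rise in TAM CM (0.14, SE 0.03, adjusted p = 3.70e-05) was not called without scaling factors (0.05, adjusted p = 0.152), and M2 CM did not pass (0.05, SE 0.03, adjusted p = 0.158). Itgb5, the partner of alpha v in vitronectin binding, measured 171, 168 and 165 CPM with M0 CM, 116, 117 and 105 with M1 CM, 122, 121 and 125 with M2 CM, and 171, 173 and 179 with TAM CM. Thus M1 CM and M2 CM lay below M0 CM and TAM CM, by 0.57 (SE 0.04, adjusted p = 1.78e-18) and 0.45 (SE 0.04, adjusted p = 2.02e-14) against M0 CM on the log2 scale, and TAM CM did not differ from M0 CM by the test (0.05, SE 0.04, adjusted p = 0.191).

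The other partners of alpha v, and the platelet chain Itga2b, were rare. Itgb3 had 172, 94, 119 and 29 counts in the 4 groups, ordered as above, and was lower in TAM CM (-2.44, SE 0.32, adjusted p = 3.05e-09). It was also lower in M1 CM (-0.82, SE 0.26, adjusted p = 0.007), a call lost without the first M0 CM library (adjusted p = 0.0594). Itgb8, whose chain with alpha v activates TGF-beta, had 123, 22, 70 and 5 counts in the 4 groups and was lower in M1 CM (-2.42, SE 0.38, adjusted p = 3.54e-07) and TAM CM (-4.43, SE 0.51, adjusted p = 6.54e-11).

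Its M2 CM call (-0.78, SE 0.31, adjusted p = 0.0437) was lost without the first or second M0 CM library (adjusted p = 0.0663 and 0.233) or the first or second M2 CM library (adjusted p = 0.11 and 0.194), and with the replicate number as a block (-0.77, adjusted p = 0.0519). Itgb6, the epithelial chain that also activates TGF-beta, had 19, 46, 84 and 19 counts and rose in M2 CM (2.17 against M0 CM, SE 0.43, adjusted p = 4.53e-05). Its rise in M1 CM (1.29, SE 0.47, adjusted p = 0.018) was lost without the first or second M0 CM library or the second M1 CM library (adjusted p = 0.0881, 0.0626 and 0.1). Itga2b had 203, 173, 131 and 90 counts and was lower in TAM CM (-1.07, SE 0.24, adjusted p = 9.08e-05). In M2 CM (-0.59, SE 0.22, adjusted p = 0.0329) its call was lost in 5 of the 6 fits without an M0 CM or M2 CM library, with adjusted p from 0.0624 to 0.191 in those.

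Lamb1 stayed the most abundant laminin beta chain gene in all 4 media, and its margin over Lamb2 widened in M2 CM and TAM CM. Lamb1 (chr12:31265234-31329644, plus strand), the main beta chain of embryonic and stromal laminins, measured 447, 461 and 451 CPM with M0 CM, 358, 346 and 360 with M1 CM, 739, 740 and 757 with M2 CM, and 723, 709 and 717 with TAM CM. M2 CM and TAM CM were far above M0 CM and M1 CM was below it. The log2 change against M0 CM was 0.72 (SE 0.03, adjusted p = 7.67e-26) in M2 CM, 0.66 (SE 0.03, adjusted p = 1.77e-25) in TAM CM and -0.35 (SE 0.03, adjusted p = 1.58e-14) in M1 CM. TAM CM was not called different from M2 CM (-0.06, SE 0.03, adjusted p = 0.0747), but was without scaling factors (-0.10, adjusted p = 0.00147) and with these 2 groups fitted alone (-0.06, adjusted p = 0.0486).

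Lamb2, the beta chain of mature basement membranes and synapses, measured 74.0, 67.1 and 77.3 CPM with M0 CM, 51.9, 46.8 and 48.8 with M1 CM, 51.5, 46.7 and 48.4 with M2 CM, and 24.5, 22.3 and 24.6 with TAM CM. It was lower in all 3 media, and lowest in TAM CM, with no overlap there. The log2 change was -0.57 (SE 0.05, adjusted p = 7.85e-13) for M1 CM, -0.58 (SE 0.05, adjusted p = 1.42e-12) for M2 CM and -1.62 (SE 0.06, adjusted p = 8.53e-29) for TAM CM. Per length, Lamb2 held 20.7% ± 1.4, 18.3% ± 0.59, 9.49% ± 0.47 and 5.13% ± 0.22 of laminin beta RNA (SD, n = 3) in the M0, M1, M2 and TAM CM groups.

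Lamb3, the beta chain of the hemidesmosomal laminin, was high in M2 CM. It lay between 1.39 and 1.40 CPM in the M0 CM libraries, 1.59 and 1.89 in M1 CM, 8.73 and 10.8 in M2 CM, and 1.27 and 1.47 in TAM CM, from 90, 109, 603 and 84 counts. The log2 change in M2 CM was 2.78 (SE 0.18, adjusted p = 3.65e-18) against M0 CM and 2.46 (SE 0.17, adjusted p = 2.16e-17) against M1 CM, and TAM CM was 2.78 below M2 CM on the log2 scale (log2 fold change -2.78, SE 0.18, adjusted p = 5.86e-19). M1 CM (0.32, SE 0.22, adjusted p = 0.241) and TAM CM (-0.00, SE 0.24, adjusted p = 1) were not called against M0 CM.

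**Figure D4:**
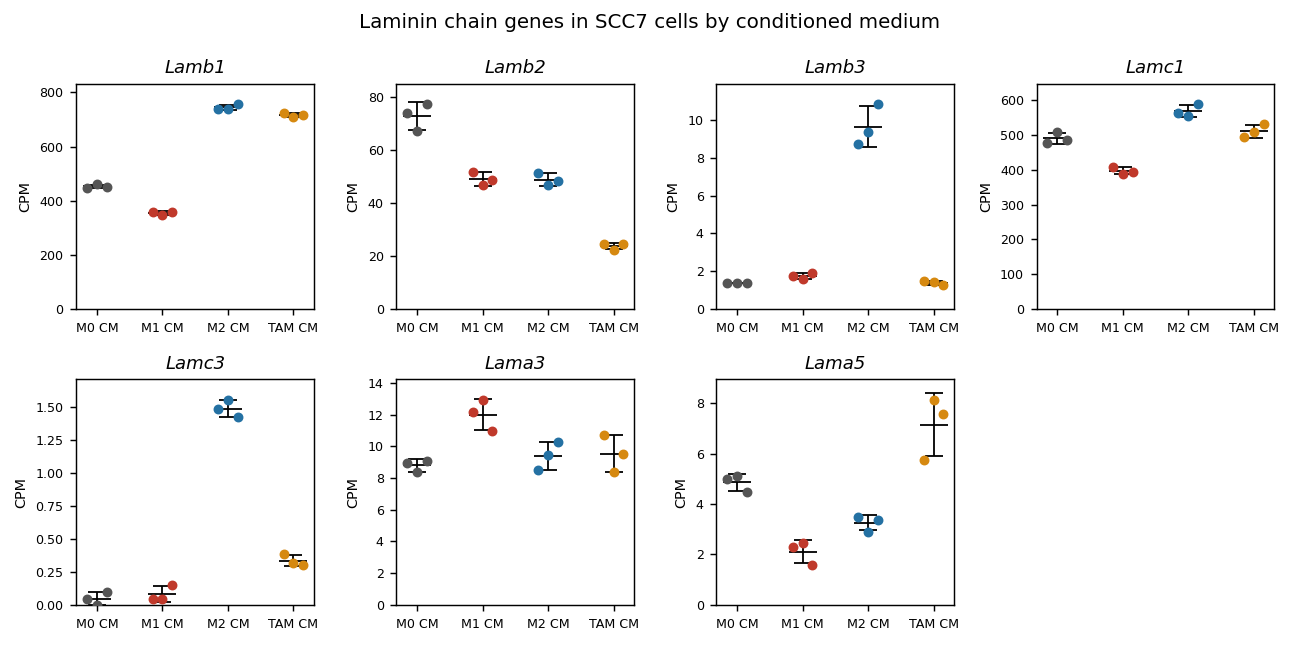
CPM of 7 of the 8 tested laminin genes in each of the 12 libraries by conditioned medium (points, libraries; lines, mean and SD of 3), each panel with its own linear axis from 0. Lamb1 stands at 709 to 757 CPM in the M2 CM and TAM CM libraries and 346 to 461 in the others, and Lamb3 stands at 8.73 to 10.8 CPM in M2 CM and under 2 CPM elsewhere.

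Of the gamma chain genes, Lamc1, found in most laminins, measured 478, 509 and 486 CPM with M0 CM, 408, 389 and 393 with M1 CM, 563, 554 and 589 with M2 CM, and 494, 508 and 531 with TAM CM. It rose in M2 CM (0.21, SE 0.03, adjusted p = 4.63e-07) and fell in M1 CM (-0.31, SE 0.03, adjusted p = 2.37e-11). TAM CM overlapped M0 CM and was not called (0.06, SE 0.03, adjusted p = 0.109), although it was without the second M0 CM library (0.08, adjusted p = 0.0443) or the first TAM CM library (0.08, adjusted p = 0.0426).

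Lamc3 had 3, 5, 93 and 20 counts in the M0, M1, M2 and TAM CM groups. With so few counts in M0 CM, the ratio of counts per scaled library was 31.9 in M2 CM (exact binomial 95% interval 10.6 to 158) and 7.14 in TAM CM (2.12 to 37.5), intervals that cover counting error only.

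Laminin alpha chains were rare and went in different directions. Lama3 (the hemidesmosomal alpha chain) measured 8.93, 8.35 and 9.11 CPM with M0 CM, 12.1, 12.9 and 10.9 with M1 CM, 8.50, 9.43 and 10.3 with M2 CM, and 10.7, 8.36 and 9.52 with TAM CM. It was called higher in M1 CM alone (0.45, SE 0.11, adjusted p = 0.000462), and neither M2 CM (0.09, SE 0.11, adjusted p = 0.548) nor TAM CM (0.11, SE 0.11, adjusted p = 0.402) passed.

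Lama5, the widespread epithelial and endothelial alpha chain, averaged 4.86 ± 0.34, 2.11 ± 0.46, 3.26 ± 0.30 and 7.15 ± 1.26 CPM (SD, n = 3) in the M0, M1, M2 and TAM CM groups. The log2 change against M0 CM was -1.19 (SE 0.18, adjusted p = 2.27e-07) for M1 CM, -0.58 (SE 0.17, adjusted p = 0.00553) for M2 CM and 0.56 (SE 0.15, adjusted p = 0.00119) for TAM CM. Per length, Lama3 and Lama5 together made up most laminin alpha RNA: Lama3 held 64.8%, 85.7%, 74.8% and 58.0% of it, and Lama5 33.8%, 14.1%, 24.5% and 41.0%, in that order. Summed per length, laminin alpha RNA ranged from 1.17 CPM per kb in M2 CM to 1.53 in TAM CM, whereas laminin beta RNA was 57.9, 44.1, 84.7 and 76.3 CPM per kb and laminin gamma RNA 61.6, 50.3, 72.0 and 65.7.

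Genes that work with these receptors and ligands were counted from lists chosen with earlier results of these data known. Beside every list stand all tested genes, of which 27.7% were higher and 25.6% lower in M1 CM against M0 CM. Their shares were 21.0% and 18.5% in M2 CM and 35.1% and 34.9% in TAM CM, with median log2 changes of 0.01, -0.00 and 0.00. No list was tested against these shares. Of 38 tested genes of the cytoplasmic integrin adhesion complex, 11 were higher and 19 lower in M1 CM, 11 and 12 in M2 CM, and 10 and 22 in TAM CM, all against M0 CM, with medians of -0.08, 0.01 and -0.16 on the log2 scale. Cav1, the caveolin that associates with integrins, averaged 640 ± 24.3 CPM with M0 CM and 108 ± 4.11 with TAM CM (-2.56, SE 0.04, adjusted p = 1.04e-45). Fyn, a kinase that acts downstream of integrins, averaged 20.9 ± 2.07 CPM with M0 CM and 106 ± 2.24 with TAM CM (2.35, SE 0.06, adjusted p = 4.37e-36). Nedd9, a docking protein of focal adhesions, averaged 47.7 ± 1.54 CPM in M0 CM, 16.9 ± 2.39 in M1 CM (-1.49, SE 0.07, adjusted p = 2.59e-24) and 93.3 ± 3.07 in M2 CM (0.97, SE 0.06, adjusted p = 1.20e-19).

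A list of 9 tested genes covered hemidesmosomes and non-integrin laminin receptors, but also the tetraspanins Cd9 and Cd81, which are neither. Of these, 4 were higher and 5 lower in M1 CM, 4 and 4 in M2 CM, and 1 and 8 in TAM CM. Their median log2 changes were -0.17, -0.08 and -0.48. Cd9 and Cd81 were among the 8 lower in TAM CM (Cd81 -0.65, SE 0.04, adjusted p = 2.83e-21). Dag1, the dystroglycan that binds laminin, averaged 314 ± 10.9 CPM with M0 CM and 134 ± 2.63 with TAM CM (-1.23, SE 0.03, adjusted p = 6.20e-34), while Dst, a plakin of hemidesmosomes, was the 1 higher gene there (0.62, SE 0.03, adjusted p = 3.61e-24). Of 14 tested basement membrane partners of laminin, 3 were higher and 9 lower in M1 CM, 2 and 10 in M2 CM, and 1 and 12 in TAM CM, with medians of -0.58, -0.26 and -0.63 on the same scale. Agrn, the proteoglycan agrin, was the exception with the largest rise in M1 CM (51.4 ± 1.47 to 184 ± 4.74 CPM, log2 change 1.85, SE 0.04, adjusted p = 5.50e-38). Sparc, a collagen-binding matrix protein, averaged 865 ± 16.1 CPM with M0 CM and 240 ± 8.38 with TAM CM (-1.85, SE 0.03, adjusted p = 2.81e-42).

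Of 23 other tested integrin ligands, 9 were higher and 12 lower in M1 CM, 9 and 13 in M2 CM, and 6 and 16 in TAM CM (median log2 changes -0.38, -0.15 and -0.72). Thbs1, thrombospondin 1, averaged 172 ± 1.51 CPM with M0 CM and 17.9 ± 0.16 with TAM CM (-3.27, SE 0.04, adjusted p = 2.27e-46), and Tnc, tenascin C, averaged 8.23 ± 0.99 CPM in M0 CM, 2.21 ± 0.60 in M1 CM and 25.2 ± 1.23 in M2 CM. Fbln5, an elastic fibre protein that binds integrins, was higher in TAM CM (2.21, SE 0.05, adjusted p = 6.78e-39) and lower in M2 CM (-1.21, SE 0.06, adjusted p = 2.17e-22). Of 7 tested genes of laminin processing and crosslinking, 2 were higher and 4 lower in M1 CM, 3 and 2 in M2 CM, and 1 and 6 in TAM CM (medians -0.38, 0.12 and -0.37), the 1 being Tgm2, a transglutaminase (1.92, SE 0.06, adjusted p = 1.17e-23).

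Promoter windows (250 bases before to 50 after a RefSeq start, build GRCm38.p6) were found for 23 of the 37 genes, 16 of them tested, and searched on both strands for 8 motifs, of which the STAT6 palindrome was added after the data were seen. Of these, GAS (TTCNNNGAA), the STAT6 palindrome (TTC and GAA with 4 bases between), ISRE (TTTC, 2 bases, TTTC), AP-1 (TGANTCA), the amino acid response element (TGATGNAA), NF-kB, TEAD (GGAATG) and the E-box (CACGTG) occur in 8.30%, 6.95%, 3.44%, 7.81%, 3.97%, 8.46%, 14.7% and 7.15% of all 32851 windows. Counted by gene, in the same order, they occur in 9.55%, 8.01%, 3.99%, 8.97%, 4.51%, 9.55%, 16.6% and 8.09% of the 27025 genes with a window. The 23 member genes had 26 windows. GAS was found in the windows of Itga10 and Lamb2, NF-kB in those of Itga3 and Lamb3, and TEAD in those of Itga10, Itgb1 and Lamb3. The STAT6 palindrome lay in those of Itga3 and Itgax, ISRE in those of Itga2b and Itga3, where it overlaps the STAT6 palindrome, and AP-1 in those of Itga3, Itga9 and Itgax. No window of a member held the amino acid response element or the E-box. None of the 8 lay in the window of Itga2 or Itgb7, which says only that those letters are absent there. The 250 bases before the start are shown for Itga2, which rose in all 3 media, and for Itgb1, the most abundant beta chain gene. Both stretches of 250 bases overlap no annotated exon, and capitals mark the TEAD letters. Itga2 is at chr13:114932101-114932350 on the minus strand and Itgb1 at chr8:128685404-128685653 on the plus strand.
Itga2: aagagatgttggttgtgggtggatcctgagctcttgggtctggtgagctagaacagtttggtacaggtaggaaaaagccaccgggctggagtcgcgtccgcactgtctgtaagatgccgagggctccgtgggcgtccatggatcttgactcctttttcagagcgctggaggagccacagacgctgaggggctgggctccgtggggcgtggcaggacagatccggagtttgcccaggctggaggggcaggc
Itgb1: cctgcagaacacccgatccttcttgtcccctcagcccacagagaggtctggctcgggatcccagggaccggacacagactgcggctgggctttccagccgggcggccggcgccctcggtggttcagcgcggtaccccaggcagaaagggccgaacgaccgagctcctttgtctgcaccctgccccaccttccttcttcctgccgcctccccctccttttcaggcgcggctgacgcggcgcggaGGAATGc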

How the data were processed

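RNA of SCC7 cells was sequenced in 12 libraries, 3 for each of 4 conditioned media, grouped by their titles. The authors deposited raw read counts per Ensembl gene, whole numbers with no scaling. Per the submitters' processing notes, HISAT2 2.0 and build mm10 were used. The tool, annotation release and strand setting of the counting were not given in the sources used here. Of 55487 identifiers, 55227 matched GENCODE release M21 (GRCm38), which also gave exon lengths and coordinates.

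Counts were fitted in R 4.3.3 with edgeR 4.0.16: filterByExpr kept 14509 genes (those removed held 0.0815% of counts), TMM scaled the libraries, and glmQLFit (robust) took a mean for each of the 4 groups over all 12 libraries. The 6 comparisons used glmQLFTest, adjusted by Benjamini-Hochberg across the tested genes and called at 0.05. Standard errors divide the log2 fold change by the root of F. The fit was tested on counts simulated with its own dispersions, so errors of the model itself were not tested. Genes above 1 CPM were changed by 1.25-, 1.5-, 2- and 4-fold, 50 each, and 31, 44, 46 and 49 were recovered. Of 13687 unchanged genes, 11 were called. At this depth 1 CPM is 18.3 to 23.5 counts, so low values have a large counting error.

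The members and gene lists were chosen with earlier results of these data known. Members at 10 CPM or more in a group mean are given by library, the others by ranges or counts, and the values of 1 member are not reported here, although counts over members include it. Of each list, up to 3 called genes of largest change per comparison, at 5 CPM or more in the higher group and with no overlap, could be named. The motif search was exact, on both strands of the promoter windows. Alternatives were DESeq2 1.42.0 and its size factors, other filters, no scaling, a 1.5-fold threshold (glmTreat), 2 groups alone, the replicate number as a block, and each library left out.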

Additional observations from a re-analysis of the deposited data

How the results depend on the processing

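No called direction reversed in 2171 recomputed values of the 156 member-by-comparison results, and 2031 of these values kept the call. Those of the 1.5-fold test (glmTreat) have the log2 fold changes of the main fit, so their direction could not reverse. DESeq2's size factors changed no call of a member, its Wald test lost 4, dropping the low-count filter lost 3, a minimum of 1 CPM in 3 libraries gained 1 and left 6 results untested (all Itgb6, 5 of them called), fitting the 2 groups alone gained 3 and left 7 untested (of Itgb6, Itgb8 and Lamc3, 5 of them called), and no scaling gained 3 and lost 3. Leaving a library out lost the call in 48 of 714 values of called results and gained one in 7 of 222 values of the others. Testing against a 1.5-fold change (glmTreat) lost 67 calls. Of the 26 tested members it left 3 higher and 3 lower in M1 CM against M0 CM (of all 14509 tested genes, 920 and 452). Against M0 CM it left 4 and 1 in M2 CM (201 and 175), and 7 and 6 in TAM CM (1871 and 1941). Against M1 CM it left 5 and 3 in M2 CM (387 and 1026), and 3 and 3 in TAM CM (1266 and 1716). In TAM CM against M2 CM it left 6 and 8 (1756 and 1666). That test asks for a larger change.

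Without 1 library the counts higher and lower ranged from 5 to 6 and 11 to 14 in M1 CM against M0 CM, 8 to 9 and 8 to 9 in M2 CM against M0 CM, 10 to 12 and 9 to 10 in TAM CM against M0 CM, 9 to 13 and 5 to 6 in M2 CM against M1 CM, 10 to 12 and 7 to 9 in TAM CM against M1 CM, and 8 to 10 and 11 to 13 in TAM CM against M2 CM. Of all genes tested in those fits (14763 to 14840), 3699 to 3863 were higher and 3418 to 3551 lower in M1 CM against M0 CM. In M2 CM and TAM CM against M0 CM they were 2652 to 2738 and 2342 to 2433, and 4875 to 4912 and 4901 to 4928. Against M1 CM they were 3752 to 3882 and 3839 to 4025 in M2 CM, and 4554 to 4638 and 4792 to 4901 in TAM CM. In TAM CM against M2 CM they were 4794 to 4842 and 4713 to 4772. Deviations from the group mean correlated at -0.03 to 0.05 over 18 pairs of same-numbered libraries of different groups. Over 36 pairs of other numbers they correlated at -0.05 to 0.05. Counting error enters every deviation, so whether same-numbered libraries share a batch was not tested by these values. With the replicate block 6 members were higher and 14 lower in M1 CM, 9 and 9 in M2 CM, and 11 and 10 in TAM CM against M0 CM, and the 1 call lost was Itgb8 in M2 CM (-0.77, adjusted p = 0.0519).

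Shares not divided by exon length were, by medium (M0, M1, M2 and TAM CM), 2.98%, 17.1%, 2.41% and 14.6% for Itgb7 of integrin beta RNA, 35.7%, 30.1%, 41.2% and 33.6% for Itgav of integrin alpha RNA, and 85.9%, 87.4%, 92.7% and 96.6% for Lamb1 of laminin beta RNA. Depth limits the genes under 1 CPM, and 3 libraries a group limit all of them.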
